A study of Homo sapiens with 16 samples.

Results

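RNA labelled in living cells by an esterase sent to the nucleolus was compared with RNA labelled by the same esterase in the cytosol. The libraries were chosen by their labels: 2 pull-downs from cells carrying the nucleolar construct, named NIK3x-BS2, and 2 from cells carrying the cytosolic BS2 construct, 4 of the 16 libraries of the study. All cells were HEK293T, a line derived from human embryonic kidney that carries the SV40 large T antigen. Both groups expressed BS2 transiently from a plasmid given with a lipid reagent, received 50 µM AC-2 for 3 min 24 h later, and were stopped with 1 mM PMSF. After a click reaction with biotin, enriched RNA was captured by its poly(A) tail and made into libraries. The other 12 libraries were 3 non-transfected, 3 nuclear and 2 mitochondrial BS2 pull-downs and 4 single inputs, from mitochondrial, nuclear, cytosolic and non-transfected cells. No nucleolar input was used here, so a difference in RNA level between the transfected cells and a difference in labelling cannot be told apart for the nucleolar pull-downs.

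BS2 is a bacterial esterase that human cells do not carry, and AC-2 is a caged probe that reacts with nearby RNA once BS2 has removed its ester. The nucleolus is the site of ribosomal RNA transcription by RNA polymerase I, of its processing by small nucleolar RNAs and their proteins, and of the first steps of ribosome assembly. Most of its own RNA has no poly(A) tail. Around it lie chromatin, nuclear speckles and paraspeckles with polyadenylated RNAs that stay in the nucleus, whereas mRNAs of ribosomal proteins and most enzymes leave quickly for translation in the cytosol.

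The step between the lowest values put the depth at 11.2 and 13.02 M reads (M, 1e6) in the cytosolic pull-downs and at 10.7 and 8.89 M in the nucleolar ones, within a range of 6.34 to 20.01 M over all 16 libraries. At these depths 1 read stood for 0.0806 to 0.112 CPM (counts per 1e6). The median absolute log2 difference over genes was 0.0973 between the cytosolic pull-downs and 0.132 between the nucleolar ones. Between single libraries of the 2 groups it was 0.304 to 0.343, and between the group means 0.311. Replicates are called biological in the labels with no word on whether cultures were separate, and p-values therefore measure only the spread between the libraries, part or all of which may be technical.

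With the deposited scaling, more genes were lower than higher in the nucleolar pull-downs, but more of the differences beyond 2-fold were rises. Of 16133 genes tested with limma on log2(CPM + 1), 1802 were higher (11.2%) and 3852 lower (23.9%) at a Benjamini-Hochberg adjusted p below 0.05, and 10479 did not pass. In bulk libraries, fewer cells and less RNA per cell cannot be told apart. Among those that differed by at least 2-fold, 414 were higher (2.57%) and 151 lower (0.936%). The split depended on the scaling. Higher genes made up 31.9% of the calls with the deposited scaling, 38.4% with each library brought to a common total, 47.0% after quantile normalization and 54.7% with median-of-ratios factors. The last setting moved the median log2 fold change over all genes from -0.10 to 0.03, and the counts to 2776 higher and 2297 lower. With 1 library left out, its group holds a single library, assumed to vary like the other groups. The counts were then 1186 higher and 2969 lower without nucleolar replicate 1, 989 and 1970 without nucleolar replicate 2, 1022 and 2244 without cytosolic replicate 1, and 1086 and 2262 without cytosolic replicate 2. Counts for gene lists with a library left out are given in this same order. Shares of list members called are to be read beside the 11.2% higher and 23.9% lower of all genes. They also depend on level, for which lists were not matched. Falls made up 1.05% of genes under 1 CPM, 5.65% at 1 to 5 CPM and 37.2% at 50 to 100 CPM.

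**Figure D1:**
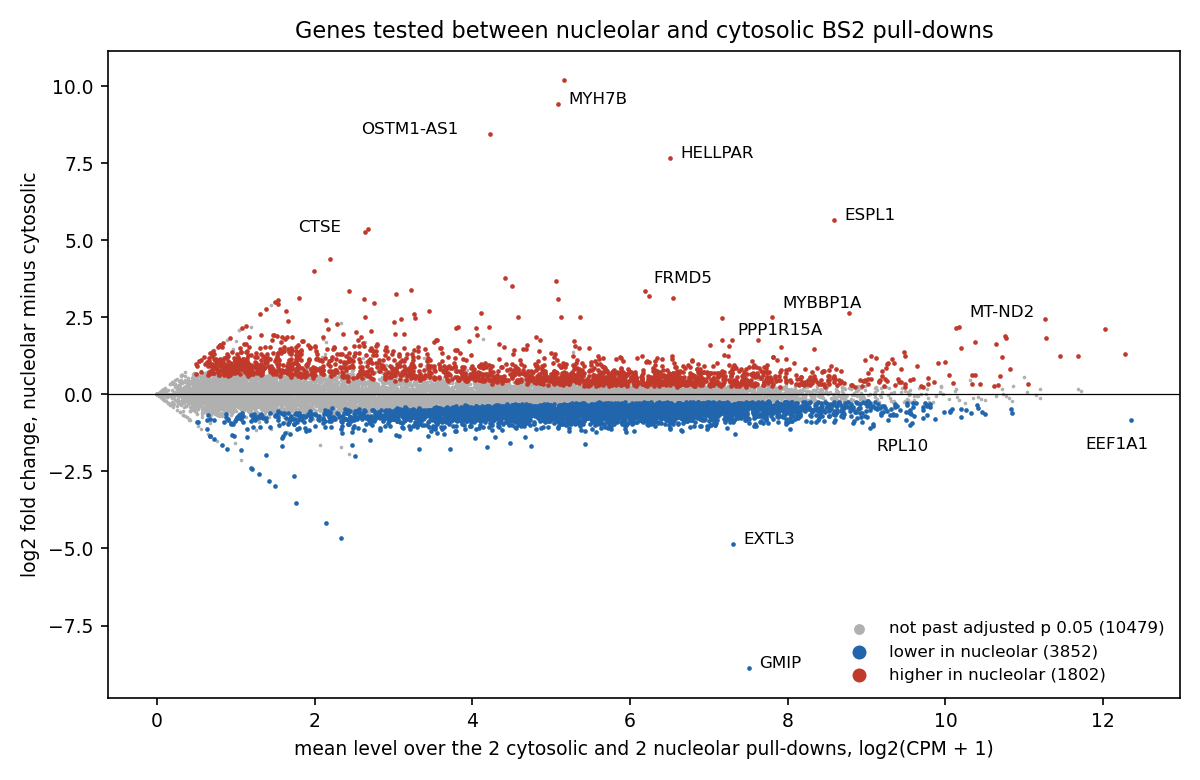
Each point is 1 of 16133 genes, with the mean level over the 4 libraries on the horizontal axis (log2(CPM + 1)) and the log2 fold change of nucleolar over cytosolic pull-downs on the vertical axis. The 1802 higher genes (red) reach much larger fold changes than most of the 3852 lower ones (blue), of which GMIP and EXTL3 stand furthest below 0 among named genes.

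A small set of genes was far higher in both nucleolar pull-downs than in any other library. MYH7B (chr20:34975403-35002437, GRCh38), which encodes a myosin heavy chain, was at 0.276 and 0.323 CPM in the cytosolic pull-downs and 948 and 825 CPM in the nucleolar ones. The cytosolic values rest on 3 and 4 reads, so the ratio of 2959 has a counting interval of 1436 to 7361 (95%, exact Poisson, counting error only). The 14 libraries other than nucleolar held 0 to 2.92 CPM. The lncRNA OSTM1-AS1 (chr6:108123515-108159392) had no read in either cytosolic pull-down and 354 and 339 CPM in the nucleolar ones, at least 1337-fold higher when 0 is replaced by 3 reads per library. It is antisense to OSTM1, and the counting is not stated to use strand. HELLPAR (chr12:102197585-102402596), a long intergenic RNA, was at 4.98 and 5.79 CPM in the cytosolic and 1391 and 1218 CPM in the nucleolar pull-downs, with 4.98 to 11.9 CPM in the 14 other libraries. ESPL1 (chr12:53268299-53293643) encodes separase, the protease that opens cohesin rings at anaphase. It was present everywhere, at 45.9 to 82.3 CPM in the 14 other libraries, but at 2713 and 2727 CPM in the nucleolar pull-downs. CTSE (chr1:206009264-206023909), the aspartic protease cathepsin E, went from no read in either cytosolic pull-down to 37.6 and 38.1 CPM, at least 146-fold higher.

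Fitted log2 fold changes, each ± the standard error from limma, were 9.41 ± 0.25 for MYH7B, 8.44 ± 0.21 for OSTM1-AS1, 7.68 ± 0.18 for HELLPAR, 5.66 ± 0.13 for ESPL1 and 5.28 ± 0.22 for CTSE. The adjusted p-values were 1.87e-13 for HELLPAR and 8.82e-14 for ESPL1. MYH7B, OSTM1-AS1 and CTSE lay under 1 CPM in every other pull-down and so passed the filter on low values through the nucleolar libraries alone, for which reason no p-value is given for them. Fitted fold changes understate the change of genes near 0, because of the 1 CPM added before the log. The next rises among named genes were smaller. The membrane protein PRRG3 went from 5.11 and 4.42 CPM to 73.2 and 83.8 CPM, FRMD5, which encodes a FERM domain protein, from 23.7 and 19.9 CPM to 235 and 228 CPM, and LINC02410 from 1.66 and 1.61 CPM to 21.6 and 27.2 CPM. PRRG3, with 2.79 to 22.2 CPM in the 14 other libraries, varied more between libraries than FRMD5, with 8.37 to 23.7 CPM. ASDURF shares a transcript with another gene and COMMD3-BMI1 is a readthrough of 2 genes, so the reads behind their rises (4.38 and 3.37 on the log2 scale) are of uncertain origin. In all, 22 rises, 8 of them of clone-named genes, and 5 falls exceeded 8-fold among genes with at least 5 CPM in the higher group and no overlap of the groups.

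Tested genes nearby changed less, as most genes would beside ones picked for changes over 8-fold. Within 50 kb of the 26 genes with coordinates that changed over 8-fold, 86 other genes were tested, with log2 fold changes between -1.13 and 1.47. Of these, 17 were higher (19.8%) and 21 lower (24.4%), beside 11.2% and 23.9% of all genes. Around MYH7B the 3 tested neighbours were all lower, at -0.50 to -0.32, and around ESPL1 the 5 tested neighbours ran from -0.74 to 0.46.

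Of the 5 falls over 8-fold, 3 belong to genes known only by a clone name. The other two, GMIP and EXTL3, were also high in the cytosolic input. GMIP (chr19:19629476-19643667), which encodes a GTPase-activating protein, was at 3960.1 and 3962 CPM in the cytosolic pull-downs and 6.31 and 8.53 CPM in the nucleolar ones. The log2 fold change was -8.89 ± 0.32 (adjusted p = 4.41e-11). The cytosolic input held 1504 CPM of GMIP and the non-transfected input 7.93 CPM, while the 13 libraries not from cytosolic BS2 cells, nucleolar ones included, held 3.92 to 13.4 CPM. EXTL3, a glycosyltransferase of heparan sulfate synthesis on chromosome 8, was at 860.0 and 849 CPM and 28.5 and 28.2 CPM, a change of -4.87 ± 0.11 (adjusted p = 8.82e-14). The cytosolic input held 363 CPM of it against 49.6 CPM in the non-transfected input. EXTL3 was at 28.2 to 56.9 CPM in those 13 libraries. For both genes the cytosolic pull-downs and input stood apart from all other libraries. MYH7B, OSTM1-AS1, HELLPAR, ESPL1, CTSE, GMIP and EXTL3 together made up 0.472% and 0.464% of the summed CPM in the cytosolic and 0.538% and 0.52% in the nucleolar pull-downs. Their share was 0.198% in the cytosolic input, above the 0.0146% in the non-transfected, 0.0148% in the nuclear and 0.0121% in the mitochondrial input.

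**Figure D2:**
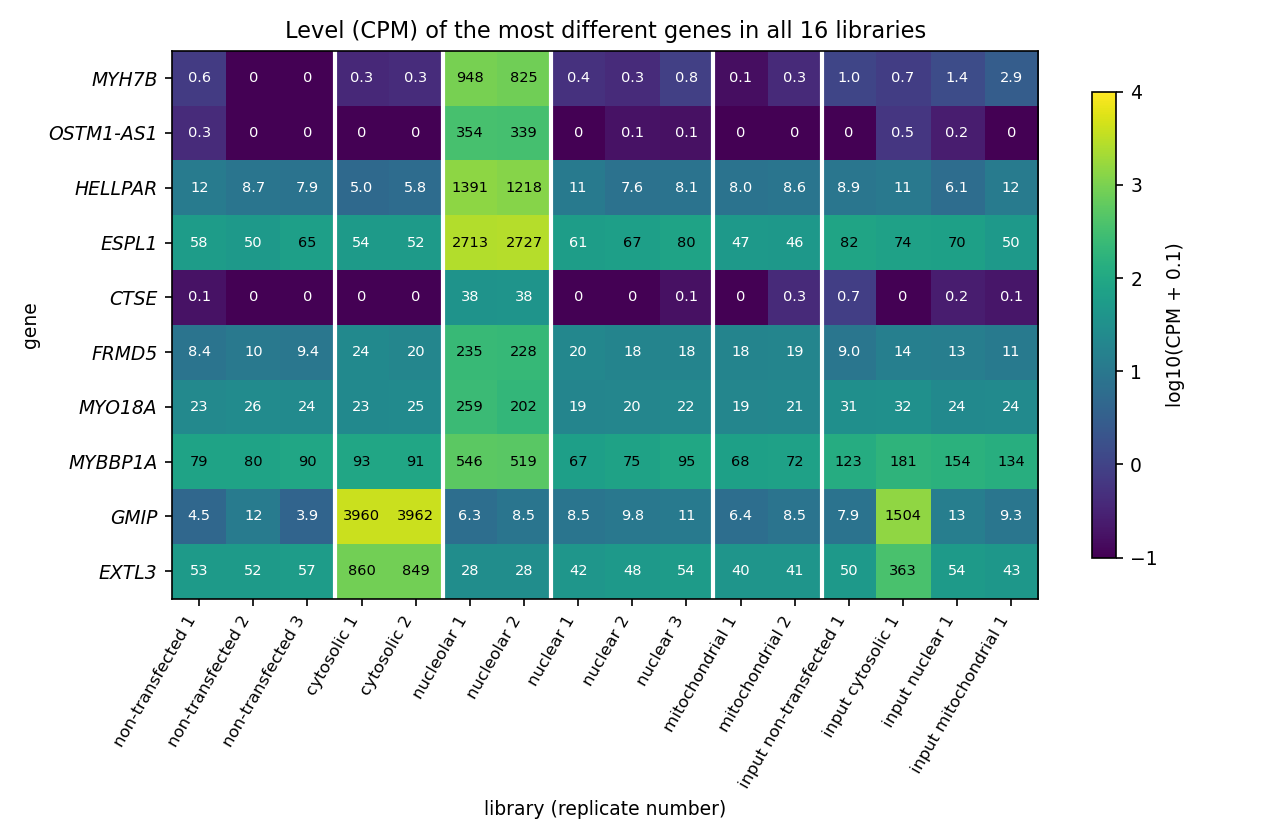
Colour gives log10(CPM + 0.1) and the printed number the CPM of 10 genes (rows) in each of the 16 libraries (columns, with replicate numbers). MYH7B, OSTM1-AS1, HELLPAR, ESPL1 and CTSE are bright in the 2 nucleolar columns, and GMIP and EXTL3 in the 2 cytosolic columns and the cytosolic input.

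Among genes that non-transfected pull-downs also contain at 10 CPM or more, the rises were led, after ESPL1, by MYO18A, an unconventional myosin, with 23 and 25.1 CPM in the cytosolic and 259 and 202 CPM in the nucleolar pull-downs. MYBBP1A, whose protein resides in the nucleolus, went from 92.8 and 91.3 CPM to 546 and 519 CPM (2.52 ± 0.13, adjusted p = 4.43e-09), above the 67.3 to 181 CPM of the 14 other libraries. LINC02746 went from 66.8 and 53.8 CPM to 307 and 368 CPM, and reached 192 CPM in a mitochondrial pull-down. COL6A3, a collagen chain, rested on 1 library: it was at 18.6 and 14.4 CPM in the cytosolic pull-downs, at 30.6 CPM in nucleolar replicate 1 and at 303 CPM in nucleolar replicate 2. Without nucleolar replicate 2 its log2 fold change was 0.86 and did not pass, nor did it pass without cytosolic replicate 1 (2.67) or cytosolic replicate 2 (2.33).

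The other named falls among the largest ran from -1.99 to -1.35 on the log2 scale. SLC5A3, a myo-inositol transporter, was at 38.2 and 42.5 CPM in the cytosolic and 15.4 and 14.1 CPM in the nucleolar pull-downs (-1.39 ± 0.15). DET1, part of a ubiquitin ligase, was at 17.2 and 15.6 CPM and 4.66 and 7.17 CPM. The innate immune sensor NLRP6 was at 76 and 73 CPM and 27.6 and 20.1 CPM, and its level differed widely between constructs: the non-transfected pull-downs held 0.565 ± 0.437 CPM (SD, n = 3) and the nuclear ones 139 ± 34.8 CPM (SD, n = 3). LAGE3, a subunit of the KEOPS complex that modifies transfer RNA, fell by 1.34 and WDR83OS, a chaperone subunit of the ER membrane, by 1.27 on the log2 scale. Several calls fell on one of 2 near-identical genes between which reads can be split. MAGED4B fell (-1.38) and MAGED4 rose (2.18), while their summed level was 36.9 and 35.5 CPM in the cytosolic and 37.2 and 43.8 CPM in the nucleolar pull-downs. FAM156B fell (-1.99), and the sum with FAM156A was 14.3 and 12.3 against 15.6 and 14.7 CPM. FAM156B rested on nucleolar replicate 2, without which it was at -0.48, and did not pass without either cytosolic replicate. MAGED4B did not pass with any of the 4 libraries left out or with common-total, quantile or median-of-ratios scaling. The fall of GATD3A was -1.76 alone and -0.43 summed with GATD3B, and the rise of U2AF1L5 was 2.66 alone and 0.47 summed with the splicing factor gene U2AF1. U2AF1L5 did not pass without nucleolar replicate 2 (2.28) or cytosolic replicate 1 (1.39). DERPC (-1.70) overlaps another gene and did not pass without nucleolar replicate 1 (-1.23).

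All 13 mitochondrially encoded mRNAs rose in the nucleolar pull-downs, with a median log2 fold change of 1.76 against -0.10 over all genes. MT-ND2, a subunit of complex I, was at 512 and 569 CPM in the cytosolic and 2183 and 2773 CPM in the nucleolar pull-downs (2.19 ± 0.18, adjusted p = 1.31e-06). MT-ATP8, of the ATP synthase, went from 162 and 189.7 CPM to 905 and 1326 CPM (2.64), MT-CYB, of complex III, from 699 and 782 CPM to 2158 and 2628 CPM (1.69), and MT-CO1, the largest catalytic subunit of complex IV, from 2041 and 2228 CPM to 4621 and 5460.0 CPM (1.24). MT-ND6, the mRNA encoded on the light strand, went from 23 and 28.5 CPM to 64.4 and 85.6 CPM (1.5). The other 8 lay between 1.22 for MT-CO3 and 2.15 for MT-ND1. The groups did not overlap for any of the 13, as for 73.3% of all genes tested. The 2 mitochondrial ribosomal RNAs rose as well, MT-RNR2 by 1.25 ± 0.16 and MT-RNR1 by 0.92 ± 0.12. All 13 mRNAs passed with each of the 4 libraries left out, and the median stayed between 1.56 and 1.96. Nuclear genome copies of mitochondrial genes could share some of these reads.

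These 13 mRNAs made up 0.845% and 0.931% of the summed CPM in the cytosolic pull-downs and 2.58% and 3.29% in the nucleolar ones. The non-transfected pull-downs held 2.03 ± 0.236% (SD, n = 3), the nuclear ones 0.876 ± 0.139% (SD, n = 3) and the mitochondrial ones 4.84% and 6.06%. Among inputs the share was 0.602% in cytosolic, 1.33% in non-transfected, 1.84% in nuclear and 3.29% in mitochondrial cells. The share thus differed between the single inputs, and its part in the rise was not tested. The cytosolic pull-downs lay below the non-transfected ones and the nucleolar ones above.

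**Figure D3:**
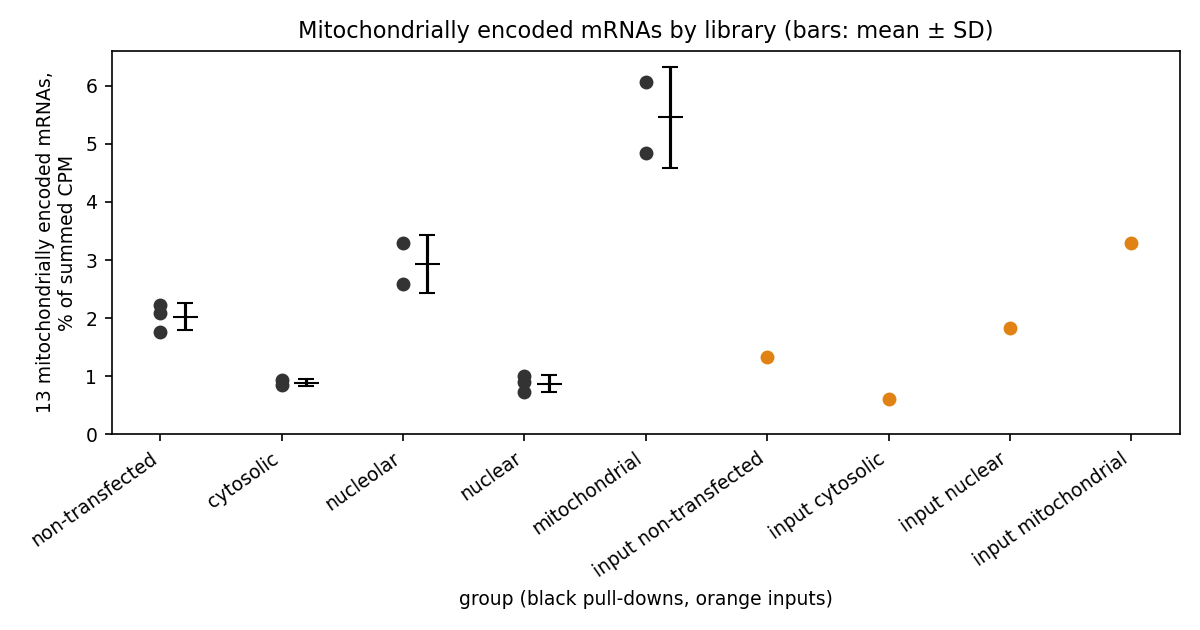
Points give the percent of summed CPM from the 13 mitochondrially encoded mRNAs in each library, black for pull-downs and orange for single inputs, with the mean ± SD beside each replicated group. The nucleolar pull-downs at 2.58% and 3.29% lie above both cytosolic ones and below both mitochondrial ones.

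Detained-intron mRNAs are known for introns that keep part of their transcripts in the nucleus. Of 22 tested, 18 rose (81.8%, beside 11.2% of all genes) and none fell, with a median log2 fold change of 0.71. The other 4, OGA, NKTR, DDX17 and TRA2A, lay between -0.02 and 0.23. CCNL1, an L-type cyclin that takes part in splicing, was at 139.8 and 152 CPM in the cytosolic and 338 and 343 CPM in the nucleolar pull-downs (1.22 ± 0.12, adjusted p = 8.99e-06). Its relative CCNL2 went from 38 and 36.4 CPM to 78.8 and 98.3 CPM. CLK1, the kinase that phosphorylates SR proteins, went from 90.03 and 101 CPM to 192 and 195 CPM (1.02) and LUC7L3, a U1-associated splicing factor, from 421 and 449 CPM to 843 and 869 CPM (0.98). The splicing-related RSRP1 and PNISR changed by 1.21 and 1.02, and OGT, the enzyme that adds O-linked GlcNAc, by 0.76. Against non-transfected pull-downs, the median of the list was 0.35 for cytosolic, 1.19 for nucleolar, 1.0 for nuclear and 0.73 for mitochondrial BS2. These 4 values share their controls. With a library left out, the count of rises was 16, 15, 15 and 16.

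Of 12 long noncoding RNAs that stay in the nucleus, 6 rose (50%, beside 11.2% of all genes), none fell and 6 did not pass. Their median was 0.37. MALAT1, the RNA of nuclear speckles, was at 439.6 and 491 CPM in the cytosolic and 1040.0 and 1176 CPM in the nucleolar pull-downs (1.25 ± 0.14, adjusted p = 2.12e-05). NEAT1, on which paraspeckles are built, went from 49.1 and 56.9 CPM to 108 and 134 CPM (1.17 ± 0.14, adjusted p = 3.81e-05). In both cases the nucleolar values lay below the nuclear pull-downs, which held 1573 ± 238 CPM of MALAT1 and 222 ± 8.35 CPM of NEAT1 (SD, n = 3). The mitochondrial pull-downs, with 1382 ± 85.7 CPM of MALAT1 (SD, n = 2), also lay above the nucleolar ones. GABPB1-AS1 (0.92), FTX (0.55), LINC-PINT (0.68) and PVT1 (0.33) were the other rises. FTX did not pass without nucleolar replicate 1 or cytosolic replicate 1 (0.45 in each). PVT1 did not pass with any of the 4 libraries left out. KCNQ1OT1, the imprinted antisense RNA of its locus, had 6.45 and 5.48 CPM and 8.42 and 8.08 CPM (0.41, adjusted p = 0.332), and -0.95, then past the threshold, once a trend with transcript length and GC content was removed. The count of rises with each library left out was 3, 4, 3 and 4, and LINC-PINT passed in none of these.

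Of the lncRNAs with a cytosolic reputation, 1 of 10 rose (10%) and 4 fell (40%), beside 11.2% and 23.9% of all genes. Their median was -0.05, and 0.08 with median-of-ratios factors. NORAD, a cytosolic decoy for Pumilio proteins, was at 299 and 307 CPM in the cytosolic and 204 and 195 CPM in the nucleolar pull-downs (-0.60 ± 0.1), DANCR at 42 and 41 CPM and 23 and 21.4 CPM (-0.87 ± 0.14), and SNHG5 and OIP5-AS1 fell by 0.74 and 0.38. OIP5-AS1 did not pass with common-total, quantile or median-of-ratios scaling (-0.22 in the last), nor without nucleolar replicate 2 or either cytosolic replicate. GAS5, which also hosts small nucleolar RNAs in its introns, rose from 179.7 and 177 CPM to 255 and 276 CPM. By annotation, 355 of 2097 lncRNAs were higher (16.9%) and 83 lower (3.96%), with a median of 0.14, whereas 1443 of 14010 protein-coding genes were higher (10.3%) and 3769 lower (26.9%), with a median of -0.14. These 2 sets were not matched for level, so biotype and level cannot be told apart here. Of all genes under 1 CPM, 1.05% fell (median 0.07), and of those at 1 to 5 CPM, 5.65% (median 0.08). All lncRNAs together made up 1.59% and 1.6% of the summed CPM in the cytosolic pull-downs and 2.51% and 2.45% in the nucleolar ones.

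The RNAs that define the nucleolus could hardly be measured. Of 51 small nucleolar and Cajal body RNAs with values, 4 passed the filter of 1 CPM in 2 pull-downs, and none passed the test. The summed level of all 51 was 3.66 to 3.84 CPM in the cytosolic, 12.7 to 14.2 CPM in the nucleolar and 13.8 to 16.3 CPM in the nuclear pull-downs. SNORD3A, the U3 RNA of ribosomal RNA processing, was at 0.737 and 0.54 CPM and 1.29 and 1.78 CPM (0.63, adjusted p = 0.175). RN7SK, a polymerase III RNA, was at 54.5 CPM in nucleolar replicate 1 and 0 in nucleolar replicate 2 and both cytosolic pull-downs. Of 7 annotated ribosomal RNA genes tested, none passed. The label of the nucleolar construct was therefore not checked against its defining RNAs, and BS2 itself is not among the genes of the table. BCYRN1, a cytosolic polymerase III RNA with an A-rich stretch, rose from 79.99 and 71.4 CPM to 133 and 164 CPM (0.96 ± 0.12), although it belongs to no list and was looked up after its value was seen.

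Of 27 snoRNA host genes, 6 rose and 6 fell, 22.2% each beside 11.2% and 23.9% of all genes (median 0.03). TAF1D, which also encodes a polymerase I factor, rose from 387 and 406 CPM to 728 and 691 CPM and SNHG1 from 139 and 144 CPM to 218 and 229 CPM, while SNHG16 fell from 342 and 359 CPM to 203 and 173 CPM. Among 23 mRNAs of small nucleolar ribonucleoproteins and nucleolar proteins, 6 rose and 4 fell (median -0.0021, and 0.15 with median-of-ratios factors), with 4, 3, 3 and 3 rises when each library was left out. The 6 rises and 4 falls were 26.1% and 17.4% of the list, beside 11.2% and 23.9% of all genes. NOP58 rose from 446 and 451 CPM to 831 and 806 CPM (0.87 ± 0.1), and NOP56 (0.45) and NCL, nucleolin (0.34), rose less. The rise of NCL did not pass without nucleolar replicate 2 or either cytosolic replicate. Fibrillarin, FBL, the methyltransferase of the same box C/D complex, fell from 209 and 205 CPM to 138 and 147 CPM (-0.54 ± 0.12), as did SNU13 (-0.67) and NHP2 of the box H/ACA complex (-0.58). NHP2 did not pass without nucleolar replicate 1 or cytosolic replicate 1, nor after quantile normalization. Of 12 polymerase I mRNAs, 4 rose and 4 fell (33.3% each). UBTF was among the rises (0.32), and the catalytic subunit POLR1A (-0.50) and POLR1B (-0.57) were among the falls. With each library left out, 3, 2, 1 and 2 polymerase I mRNAs rose. Of 58 ribosome biogenesis factors, 15 rose (25.9%) and 8 fell (13.8%), with a median of 0.11. UTP3 went from 96.1 and 95.1 CPM to 198 and 166 CPM (0.92), DDX10 from 242 and 248 CPM to 454 and 427 CPM (0.84) and PWP2 from 19.8 and 12.4 CPM to 6.12 and 6.62 CPM (-1.18). With each library left out, 5, 5, 6 and 5 of them fell, and median-of-ratios factors gave 27 rises and 5 falls.

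Ribosomal protein mRNAs carry a pyrimidine tract at their transcription start, the 5′ TOP motif, by which their translation is regulated. Around the start of 4 ribosomal protein genes, of EEF1A1 and of the actin gene ACTG1, all of which fell, and of CCNL1 and RSRP1, which rose, the genome reads as follows (RefSeq, GRCh38.p14), 5′ to 3′, with 10 bases before the start and 20 from it. Capitals mark the run of C and T that begins with a C at the start, where it spans at least 5 bases. For a gene with several listed starts, a start with the tract was shown where there was any. The window of RPL10 was thus picked for its tract. The windows are chr19:54200848-54200877 (plus strand) for RPS9, chr3:39406710-39406739 (plus strand) for RPSA, chr3:51995876-51995905 (minus strand) for RPL29, chrX:154398367-154398396 (plus strand) for RPL10, which has 3 listed starts, chr6:73521013-73521042 (minus strand) for EEF1A1, chr17:81512780-81512809 (minus strand) for ACTG1, chr3:157160128-157160157 (minus strand) for CCNL1 and chr1:25338235-25338264 (minus strand) for RSRP1.
RPS9: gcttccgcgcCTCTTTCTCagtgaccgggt
RPSA: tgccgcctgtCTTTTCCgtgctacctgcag
RPL29: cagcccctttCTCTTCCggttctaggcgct
RPL10: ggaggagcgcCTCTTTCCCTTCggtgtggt
EEF1A1: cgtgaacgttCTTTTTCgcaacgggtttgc
ACTG1: cgcggtcggtctcagtcgccgctgccagct
CCNL1: aacgctggttagtcttgtttcgggttccgg
RSRP1: cacgcccaccacaacaacgcgtctgcgcat

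The tract is absent at ACTG1, CCNL1 and RSRP1. Of 79 ribosomal protein mRNAs tested, 51 fell (64.6%, beside 23.9% of all genes) and 1, RPL26 (0.62), rose. The median log2 fold change was -0.46, and -0.30 with median-of-ratios factors. RPL10 was at 799.5 and 744 CPM in the cytosolic and 364 and 359.8 CPM in the nucleolar pull-downs (-1.09 ± 0.12, adjusted p = 2.15e-05). RPS9 went from 199.5 and 181 CPM to 95.3 and 94.2 CPM (-0.99), RPSA from 979 and 965 CPM to 534 and 549.7 CPM (-0.84) and RPL29 from 455 and 433 CPM to 230.3 and 248 CPM (-0.89). In each case the 2 nucleolar values lay at about the same level and below both cytosolic ones. The groups did not overlap for 73.3% of all genes tested, and these members were named for having the largest changes of the list. The count of falls with each library left out was 31, 43, 34 and 38. In all, ribosomal protein mRNAs made up 4.92% and 4.75% of the summed CPM in the cytosolic and 3.9% and 4.26% in the nucleolar pull-downs. The nuclear ones held 3.71 ± 0.371% (SD, n = 3), the mitochondrial ones 4.2% and 3.73% and the non-transfected ones 9.35 ± 0.543% (SD, n = 3). Against the non-transfected pull-downs, the median of the list was -1.05 for cytosolic, -1.44 for nucleolar, -1.68 for nuclear and -1.35 for mitochondrial BS2. These values share their controls. Many ribosomal protein genes have processed copies in the genome with which reads can be shared.

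The tract itself, a C at a RefSeq start followed by 4 bases of C or T, read on the coding strand, was present at 828 of 11662 tested genes with a listed start (7.10%), at 47 of 63 ribosomal protein genes (74.6%), at 11 of 27 translation factor genes (40.7%) and at none of 20 detained-intron genes. Outside the ribosomal protein and translation factor lists, 249 of 770 genes with the tract fell (32.3%) and 61 rose, against 2788 of 10802 without it (25.8%). Level differs between these sets. Among genes of at least 100 CPM over the 4 libraries, 39.9% of 183 with the tract and 36.2% of 1944 without it fell. From 20 to 100 CPM the shares were 40.8% of 299 and 34.1% of 4281, and under 20 CPM 18.8% of 288 and 13.7% of 4577. These are descriptions of letters at annotated starts, and the starts used in these cells were not measured.

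Of 24 housekeeping mRNAs, 14 fell (58.3%, beside 23.9% of all genes), 9 did not pass and 1, PFN1, rose (0.45), with a median of -0.52. The count of rises among them was 1, 0, 0 and 0 with a library left out. The beta-tubulin mRNA TUBB was at 1085 and 1030.5 CPM in the cytosolic and 550.1 and 504 CPM in the nucleolar pull-downs (-1.0 ± 0.1, adjusted p = 1.02e-05), the actin mRNAs ACTG1 and ACTB changed by -0.92 and -0.74, and the glycolytic PGAM1 by -0.88. Of 36 translation factor mRNAs, 15 fell (41.7%) and 5 rose (13.9%), with a median of -0.20. EEF1A1, the elongation factor and one of the most abundant mRNAs, went from 7024 and 6918 CPM to 3946 and 3918 CPM (-0.83 ± 0.096), against 15291 CPM on average in the non-transfected pull-downs. EIF4A2, a helicase of initiation whose gene hosts small nucleolar RNAs, rose from 405 and 409 CPM to 635 and 674 CPM (0.68). With each library left out, 12, 9, 11 and 10 translation factor mRNAs fell.

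Among mRNAs translated at the endoplasmic reticulum, 24 of 35 fell (68.6%, beside 23.9% of all genes), with a list median of -0.43. Only 2, CALR and SEC11C, rose (0.29 and 0.39). Neither rise passed when any of the 4 libraries was left out. KDELR2, the receptor that returns proteins to the endoplasmic reticulum, was at 302 and 287 CPM in the cytosolic and 164 and 147 CPM in the nucleolar pull-downs (-0.92 ± 0.11, adjusted p = 2.43e-05). The transferrin receptor TFRC went from 333 and 350.4 CPM to 186 and 183 CPM (-0.89) and the disulfide isomerase PDIA4 from 283 and 279 CPM to 163 and 153 CPM (-0.82). The count of falls with each library left out was 22, 15, 17 and 20. Of 77 nuclear-encoded subunits of oxidative phosphorylation, 30 fell (39.0%) and 2 rose (2.60%). The median of -0.27 had the opposite direction to the mitochondrially encoded subunits of the same complexes. NDUFA9 of complex I went from 64.3 and 57.4 CPM to 24.9 and 29.1 CPM (-1.15 ± 0.13) and ATP5F1B, the catalytic beta subunit of ATP synthase, from 767 and 745 CPM to 391 and 387 CPM (-0.96). With each library left out, 19, 20, 19 and 22 of the 77 fell. Of 77 mitoribosomal protein mRNAs, 19 fell (24.7%) and 10 rose (13%), shares near the 23.9% and 11.2% of all genes (median -0.09, and 0.06 with median-of-ratios factors), with 8, 8, 9 and 6 falls and 6, 5, 4 and 4 rises when each library was left out. Of 36 proteasome mRNAs, 13 fell and 2 rose (median -0.08, and 0.07 with median-of-ratios factors), with 10, 6, 8 and 8 falls and 1, 0, 0 and 1 rises when each library was left out. The 13 falls and 2 rises of the proteasome list were 36.1% and 5.56% of its members. Of 21 chaperone mRNAs, 6 fell (28.6%) and 3 rose (14.3%), shares near the 23.9% and 11.2% of all genes. The median of -0.03 also turned positive, to 0.12, with median-of-ratios factors, which gave 8 rises and 3 falls. With each library left out, 4, 3, 3 and 3 chaperone mRNAs fell and 1, 2, 2 and 2 rose.

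**Figure D4:**
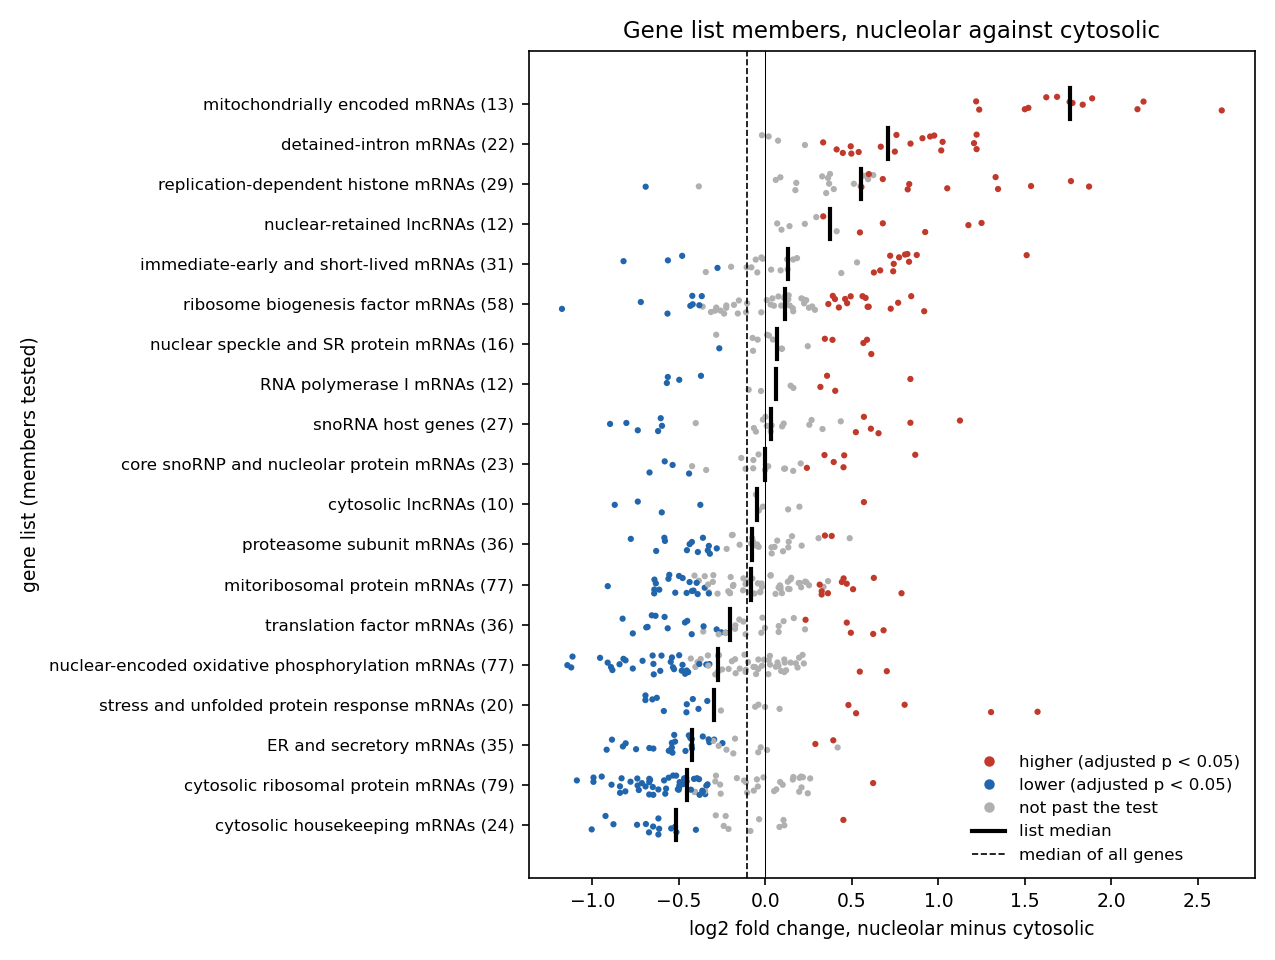
Each point is 1 tested member of a gene list, at its log2 fold change of nucleolar over cytosolic pull-downs, red or blue where it passed the test, with the list median as a black bar and the median of all genes (-0.10) as a dashed line. The lists run from housekeeping mRNAs at the bottom (median -0.52) to mitochondrially encoded mRNAs at the top (median 1.76).

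Replication-dependent histone mRNAs normally end in a stem-loop and not in a poly(A) tail. Of 29 tested, 11 rose (37.9%, beside 11.2% of all genes), 17 did not pass and 1, H4C15, fell (-0.69). The median was 0.55, with 17 rises under median-of-ratios factors. The fall of H4C15 did not pass without nucleolar replicate 2 or either cytosolic replicate, nor with common-total, quantile or median-of-ratios scaling. H2AC6 was at 13.5 and 13.7 CPM in the cytosolic and 51.3 and 53.4 CPM in the nucleolar pull-downs (1.87 ± 0.2, adjusted p = 1.41e-05), H4C8 at 5.99 and 7.5 CPM and 18.7 and 18.4 CPM (1.34), and H2BC5 at 7.83 and 8.32 CPM and 22.3 and 21.3 CPM (1.33). H4C14, the most abundant of these, went from 84.8 and 86 CPM to 146 and 157 CPM (0.82) and stood at 2.4 ± 0.602 CPM in the non-transfected pull-downs (SD, n = 3). The summed level of all 55 histone genes with values was 266 to 279 CPM in the cytosolic, 449.6 to 455 CPM in the nucleolar, 267 to 284 CPM in the nuclear and 72.3 to 82.9 CPM in the non-transfected pull-downs. Poly(A) capture retains RNAs with a tail or an A-rich stretch, and near-identical copies make single members uncertain. The count of rises with each library left out was 8, 7, 7 and 8.

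ZNF genes, which encode zinc finger proteins, many of them repressors from clusters on chromosome 19, rose in 105 of 448 cases (23.4%) and fell in 35 (7.81%), with a median of 0.18. On chromosome 19 the counts were 51 rises and 7 falls of 209 (median 0.25) and on other chromosomes 54 and 28 of 239 (median 0.10). ZNF350 was at 13 and 13 CPM in the cytosolic and 39.2 and 34.8 CPM in the nucleolar pull-downs (1.43 ± 0.16, adjusted p = 1.85e-05), ZNF829 at 61.4 and 60.6 CPM and 159 and 119 CPM (1.16), and ZNF709, the largest fall of the list, at 12.2 and 8.06 CPM and 5.28 and 1.41 CPM (-1.49). The fall of ZNF709 did not pass without nucleolar replicate 2 (-0.80) or cytosolic replicate 1 (-1.22). The count of rises with each library left out was 62, 76, 66 and 70. Falls then numbered 26, 19, 24 and 21, and median-of-ratios factors gave 165 rises. Similar neighbours in a cluster can share reads.

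Of 20 mRNAs of the stress and unfolded protein response, 5 rose (25%) and 10 fell (50%), beside 11.2% and 23.9% of all genes. The median was -0.30. The rises were a phosphatase regulator and 4 transcription factors. PPP1R15A (GADD34), which directs a phosphatase to initiation factor eIF2, went from 85.9 and 89.3 CPM to 264 and 261 CPM (1.57 ± 0.11, adjusted p = 3.13e-07), DDIT3 (CHOP) from 18.9 and 21.4 CPM to 50.2 and 52.2 CPM (1.30 ± 0.14), ATF3 from 191 and 187 CPM to 328 and 334 CPM (0.80), and ATF4 and ATF5 changed by 0.52 and 0.48. The falls included enzymes and transporters of amino acid and one-carbon supply, PSAT1 (-0.69), MTHFD2 (-0.65), SLC7A11 (-0.46) and ASNS (-0.34), and also the pseudokinase TRIB3 (-0.69), which did not pass without nucleolar replicate 2 or cytosolic replicate 1. With each library left out, 8, 4, 4 and 6 of the 20 fell and 5, 4, 4 and 4 rose, and median-of-ratios factors gave 5 falls. The nuclear pull-downs held 70.7 ± 4.88 CPM of PPP1R15A (SD, n = 3) and the mitochondrial ones 82.4 ± 3.93 CPM (SD, n = 2), both near the cytosolic level. It stood at 16.5 ± 2.05 CPM (SD, n = 3) in the non-transfected pull-downs, at 60.2 CPM in the cytosolic input with 21.3 CPM for the input of non-transfected cells.

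The list of immediate-early and other unstable mRNAs held 31 tested members, with 11 rises (35.5%), 4 falls (12.9%) and a median of 0.13. FOSL1, an AP-1 subunit, was at 7.004 and 5.32 CPM in the cytosolic and 20.7 and 18 CPM in the nucleolar pull-downs (1.51 ± 0.19), the growth factor response gene EGR1 at 13.8 and 14.6 CPM and 25.3 and 28.5 CPM (0.87), and BTG2, which recruits the deadenylase, at 128 and 125 CPM and 236 and 216 CPM (0.83). MYC fell from 49.9 and 49.7 CPM to 26.6 and 29 CPM (-0.82 ± 0.1), and ID1 and ID3, inhibitors of helix-loop-helix factors, by 0.48 and 0.56. Neither ID1 nor ID3 passed without nucleolar replicate 2 or either cytosolic replicate, nor with median-of-ratios factors. The count of rises with each library left out was 7, 8, 8 and 7. That of falls was 2, 1, 1 and 1. Of 15 interferon-response mRNAs tested, 2 rose (13.3%) and 3 fell (20%), near the shares over all genes of 11.2% and 23.9% (median -0.26), and neither of the 2 rises, DDX58 (0.61) and IRF9 (0.64), passed when any 1 of the 4 libraries was left out. Of 16 nuclear speckle and SR protein mRNAs, 5 rose (31%) and 1 fell (6.25%), with a median of 0.07. The fall was lost with any of the 4 libraries left out.

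**Figure D5:**
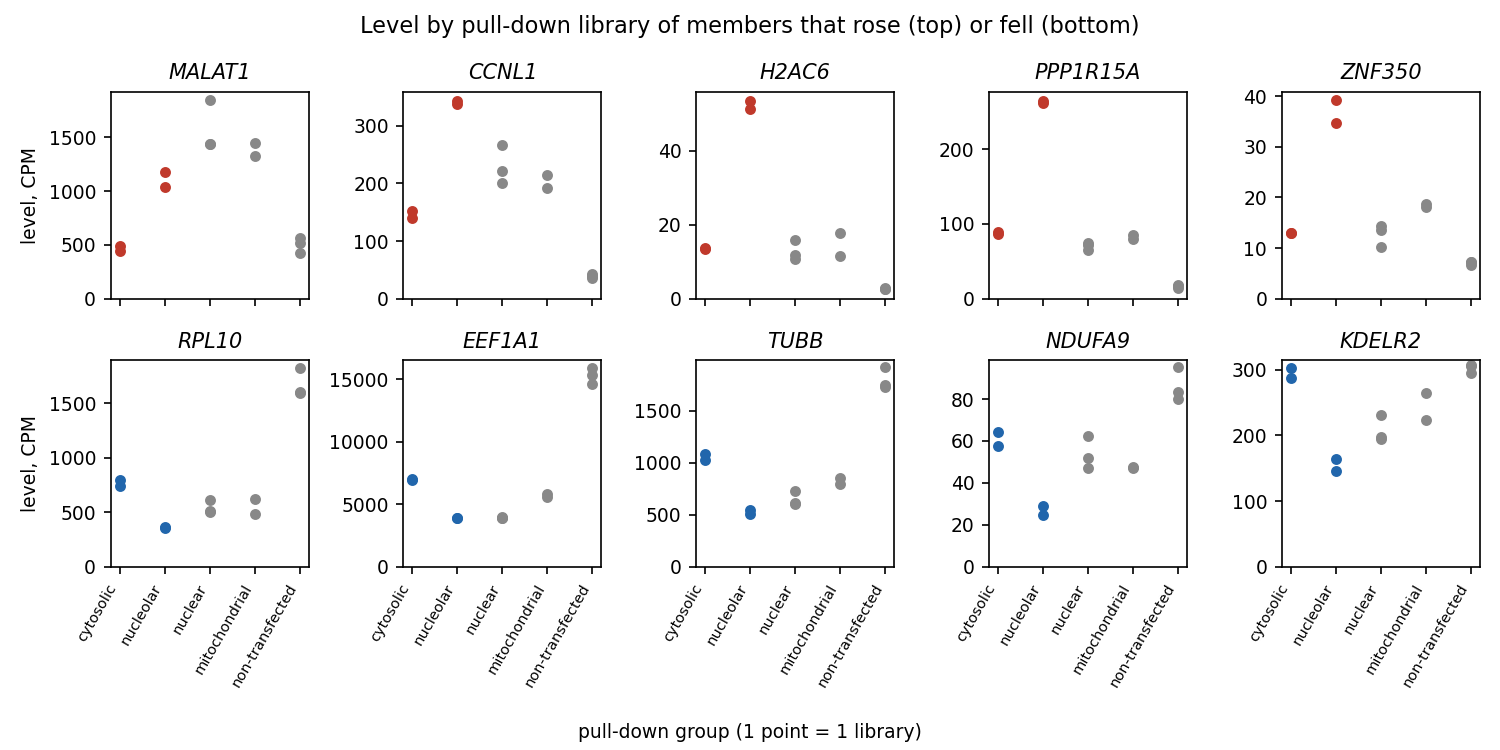
Level in CPM of 10 genes in each pull-down library, with 1 point per library and the axis from 0, for genes that rose (top row) and fell (bottom row) between the cytosolic and nucleolar groups (coloured), beside the nuclear, mitochondrial and non-transfected pull-downs (grey). In every panel the 2 nucleolar points lie to 1 side of the 2 cytosolic points, as for 73.3% of all genes tested. These 10 genes are among the members with the largest changes of their lists, which makes such separation likely.

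The 7 markers of HEK293T were detected in both groups, at a summed 795 to 805 CPM in the cytosolic and 818 to 841 CPM in the nucleolar pull-downs, with STMN1 (0.34) and NEFM (0.34) higher and VIM (-0.26), NEFL (-0.29) and KRT18 (-0.55) lower. No more than 2 of these 5 calls held with any 1 library left out. No marker of blood, liver, endothelium or connective tissue passed the test. Of 10 with values, 5 passed the filter, and the 10 summed to 18.4 to 19.5 CPM in the cytosolic and 20.4 to 22.4 CPM in the nucleolar pull-downs, mostly from COL1A1 and COL3A1.

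The share of falls depended on the level of a gene. Of 1423 genes with a mean under 1 CPM over the 4 libraries, 1.05% fell and 6.39% rose, whereas of 1605 genes at 100 to 200 CPM, 37.9% fell and 13.7% rose, and of 1022 genes above 200 CPM, 36.9% fell and 18.5% rose. Ribosomal protein mRNAs made up 68 of those 1022, and 44 of the 68 fell. From 50 CPM up, 36.9% to 37.9% of genes fell in each level range. Near these shares, falls made up 39.0% of the nuclear-encoded oxidative phosphorylation list, 36.1% of the proteasome list and 41.7% of the translation factor list. The levels of list members and of other genes were not matched.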

How the data were processed

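RNA was measured by sequencing poly(A)-captured pull-down RNA from HEK293T cells. The deposited table holds log2 values of CPM, per the labels filtered and TMM normalized by the authors. Per the submitters' processing notes, STAR 2.7.9a, Salmon 1.4.0, limma and GRCh38 were used, with no role or order given. Of 39823 entries, 14906 had no value and 39 repeated a name with identical values, which left 24878 genes. The lowest value, shared by all libraries, is log2(0.166), and this constant was subtracted after undoing the log to obtain CPM. The design had assumed plain CPM. Values were whole multiples of the smallest step (tolerance 0.01 read) in 69.1% to 84.2% of cases by library, too few for a count test.

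Groups followed the labels. Genes reaching 1 CPM in 2 or more of the 12 pull-downs entered a limma fit (version 3.58.1, R 4.3.3) of log2(CPM + 1) with the trend option, with group as the only term and all 5 pull-down groups sharing 1 estimate of the spread. The contrast was nucleolar minus cytosolic, two-sided, with Benjamini-Hochberg adjustment over all genes tested. A fold change on this scale understates the change of low genes. Levels of 0 were replaced by 3 reads per library for a lower limit of a fold. Intervals and limits cover counting error only.

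Genes with an adjusted p below 0.05, no overlap of the groups and at least 5 CPM in the higher group were ranked. The 10 largest rises and falls were named, and the same among those with at least 10 CPM in non-transfected pull-downs. Up to 6 members of each of 28 lists were also named, by largest absolute change with at least 5 CPM over the 4 libraries. These members needed neither a passed test nor groups without overlap. MALAT1, NEAT1 and the mitochondrially encoded mRNAs and ribosomal RNAs were always named. Clone-named genes were counted and not named. List members named beyond these rules were chosen after their values were seen. The comparison, members and lists were chosen with earlier results of these data known. Lists are described by counts and medians, with no test. Coordinates are those of GENCODE 29 on GRCh38, matched for 24085 genes (96.8%), and start-site sequences are from RefSeq on GRCh38.p14. Other settings numbered 16, with 2 more chosen after seeing the data (the deposited log2 values as they are, and a common total without mitochondrially encoded genes).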

Additional observations from a re-analysis of the deposited data

How the results depend on the processing

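Against 1802 higher and 3852 lower genes, median-of-ratios factors gave 2776 and 2297, and a test for more than a 2-fold change gave 49 and 8. With 1 of the 4 libraries left out, the counts ran from 989 to 1186 higher and from 1970 to 2969 lower. The 12 other alternatives gave counts within 1.5 times of these, from 1483 to 2685 higher and from 2629 to 4796 lower. The replicate numbers did not pair the groups (r = -0.0646 over 16133 genes between replicate differences), and a replicate block gave 1936 higher and 4261 lower. Of 164 named genes that passed, 135 kept their call and direction in every alternative but the fold minimum, and 29 lost it in at least 1. No named gene that passed reversed. Among those that had not passed, KCNQ1OT1 went from 0.41 to -0.95 with a length and GC trend removed, IFIT1 (-0.26) ran from -0.58 to 0.0568 with 1 library left out and reversed without nucleolar replicate 1, MX2 (-0.42) ran from -2.26 to 1.43 and reversed without nucleolar replicate 2 (0.58) or cytosolic replicate 1, and LINC00467 (0.13) ran from -0.00412 to 0.27 and reversed without cytosolic replicate 2. The cause was not tested. Depth limits calls under about 1 CPM, and short RNAs without a tail were hardly measured.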
